A study of Mus musculus with 2 samples.

Results

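The heat shock proteins and their co-chaperones were examined in 3D cultures started from mouse mammary basal cells, with and without M2-like macrophages. The genes were chosen by symbol: the Hspa, Hspb, Hspd, Hspe and Hsph genes, the Hsp90a genes, the numbered Dnaja, Dnajb and Dnajc genes, Bag1 to Bag6 and Hsf1 to Hsf4. Hspa5, Hsp90b1, Dnajb9, Dnajb11 and Dnajc3, which work in the secretory pathway, were left out of the set, as were pseudogenes. This gave 77 of 49492 genes in the table, of which 70 had the 10 reads over both libraries that the test required (19233 genes did). Symbols do not sort proteins by compartment: 54 of the 77 were assigned to cytosol or nucleus, 8 to mitochondria, 7 to the endoplasmic reticulum and 8 to none, so the set is cytosolic for the most part and not throughout. Assignments rest on general knowledge of the proteins.

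Basal cells (lin-CD24+CD29hi) were sorted by FACS from mammary glands of adult female WT mice and kept in matrix gel in a medium with EGF and ITS. For the M2 group, bone marrow-derived macrophages from C57/B6 mice, polarised by Il-4 and Il-13, were placed in a transwell insert above the gel and renewed during the culture, and the ctrl group had no treatment. Cultures ran for 11 to 14 days, and RNA of whole colonies and organoids was sequenced. In the paper's FACS of such cultures most cells were luminal in both groups, and the basal share was larger with M2. The values given here are therefore those of mixed epithelial cultures. Each group was 1 library of unsorted colonies, so culture, preparation and library cannot be told apart from co-culture in any value given here. The number of mice behind each library is not given in the sources used here.

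Heat shock proteins keep other proteins folded. HSP70 proteins bind short exposed stretches of a client and release it on ATP exchange, J proteins (the DNAJ families) bring clients to HSP70 and start its ATP cycle, and HSP110 and BAG proteins exchange its nucleotide. HSP90 finishes the folding of kinases and steroid receptors, chaperonins fold proteins inside a closed chamber, and small heat shock proteins hold unfolded proteins in solution. Under stress the transcription factor Hsf1 binds heat shock elements, which are inverted repeats of the unit GAA, and raises a subset of these genes above their basal level.

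The ctrl library held 26912610 reads in annotated genes and the M2 library 29413844. Basal markers were abundant: summed over 10 basal genes, ctrl had 248245 reads, M2 had 267617, and the median log2 fold difference of the list was -0.05, although Krt17 was called higher (1.39) and Oxtr lower (-2.18). Luminal markers were lower in M2, with 9 of 10 genes below 0, a median of -1.33 and 6 called lower (Elf5, Kit, Foxa1, Esr1, Pgr and Prlr). Their summed reads were 92845 and 73225, and the most read gene, Krt8, was at 0.21. Of 10 macrophage genes, Tyrobp, Fcer1g, Adgre1 and Ptprc had 0 reads in both libraries, and the list summed to 276 and 274 reads, most of them from Cd68 (170 and 165). Fibroblast genes summed to 91057 and 76130 reads with 3 of 8 called lower (Col1a2, Col3a1 and Col6a3) and Dcn called higher. Postn had the most reads at 72824 and 71795. The 6 endothelial genes summed to 60 and 81 reads, with Pecam1 called higher (33 and 76 reads). Cdh5 (11 and 2 reads) and Kdr (11 and 0) were called lower. By the same rule, 8.16% of all genes tested were called higher and 6.55% lower. The part of these other cell types in the values of heat shock genes was not tested.

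Promoters of 5 genes are printed first, as examples of the heat shock element in members that were lower and in members that were higher in M2. They do not stand for all members with an element. Each window holds 250 bases before and 50 bases from the RefSeq start site (GRCm38.p6), written 5′ to 3′ on the gene's strand. Capitals mark the 2-unit element, GAANNTTC or TTCNNGAA, each of which reads the same on both strands, and overlapping elements run together. Only exact matches were counted, so imperfect or gapped elements would be missed. Hspa1a and Hspa1b, strongly stress-inducible HSP70 genes, were lower in M2 (chr17:34972107-34972406 and chr17:34959189-34959488, minus strand). Hspb1, an inducible small heat shock protein, was lower too, though short of 1.5-fold (-0.52, chr5:135887669-135887968, plus strand). Hspe1, the co-chaperonin, was higher (0.34, chr1:55087898-55088197, plus strand), and so was Hsph1, an inducible HSP110 (0.28, chr5:149636266-149636565, minus strand). Both values lay between the quartiles of all genes tested (-0.32 and 0.35), and neither gene was called at 1.5-fold.
Hspa1a: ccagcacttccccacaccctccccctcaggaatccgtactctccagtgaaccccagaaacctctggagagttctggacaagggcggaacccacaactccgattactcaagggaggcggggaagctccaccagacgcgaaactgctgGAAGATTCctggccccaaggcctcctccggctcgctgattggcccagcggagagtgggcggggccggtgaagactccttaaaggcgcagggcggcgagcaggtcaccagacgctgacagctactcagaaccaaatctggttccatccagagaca
Hspa1b: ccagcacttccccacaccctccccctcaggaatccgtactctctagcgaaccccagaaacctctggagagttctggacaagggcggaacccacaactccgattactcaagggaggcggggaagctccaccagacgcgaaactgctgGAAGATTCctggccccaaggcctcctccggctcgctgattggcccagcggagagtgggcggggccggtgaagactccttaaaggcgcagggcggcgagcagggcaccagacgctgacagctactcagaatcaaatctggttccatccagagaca
Hspb1: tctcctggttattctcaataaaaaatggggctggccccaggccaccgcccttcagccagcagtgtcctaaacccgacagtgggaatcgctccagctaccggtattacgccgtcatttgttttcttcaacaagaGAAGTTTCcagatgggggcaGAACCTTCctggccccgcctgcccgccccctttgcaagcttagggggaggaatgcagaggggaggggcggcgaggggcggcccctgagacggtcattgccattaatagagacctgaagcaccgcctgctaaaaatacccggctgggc
Hspe1: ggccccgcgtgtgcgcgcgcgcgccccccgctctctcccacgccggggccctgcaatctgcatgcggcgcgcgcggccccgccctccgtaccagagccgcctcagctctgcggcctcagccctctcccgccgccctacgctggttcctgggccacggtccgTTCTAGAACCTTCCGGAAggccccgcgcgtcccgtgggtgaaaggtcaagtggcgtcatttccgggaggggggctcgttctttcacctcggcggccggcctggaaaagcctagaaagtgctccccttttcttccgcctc
Hsph1: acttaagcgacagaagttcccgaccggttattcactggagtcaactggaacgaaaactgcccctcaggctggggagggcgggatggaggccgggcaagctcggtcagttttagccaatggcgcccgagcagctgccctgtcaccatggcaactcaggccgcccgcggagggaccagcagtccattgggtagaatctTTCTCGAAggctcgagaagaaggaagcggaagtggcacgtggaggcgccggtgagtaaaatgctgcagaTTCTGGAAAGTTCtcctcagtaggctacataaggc

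The Hspa1a and Hspa1b windows were the same at 296 of 300 positions, and both had a single 2-unit element starting 104 bases before the start site. Hspb1 had separate elements at 117 and 97 bases. Hspe1 had 3 overlapping elements from 89 bases before its start, which together contain the 3-unit element (GAANNTTCNNGAA or TTCNNGAANNTTC). Of the Hspd1 windows, on the other strand, 1 (chr1:55087883-55088182) shares 285 bases with that of Hspe1. These elements lie before the start sites of both those windows. The other Hspd1 window (chr1:55088194-55088493) had 0 elements, and the elements lie past its start site, inside the gene. In Hsph1, a 2-unit element lay 54 bases before the start and a 3-unit element began 15 bases past it. Dnaja1, which was higher (0.46), had a lone 2-unit element, as Hspa1a and Hspa1b had, at 124 bases in 1 of its windows. Hspb6, which was higher (0.73), had a lone 2-unit element at 120 bases in 1 of its windows. Dnajc27, which was lower (-0.47), had a lone one at 213 bases. Dnaja1, Hspb6 and Dnajc27 had no 3-unit element. The part of the arrangement in the differences was not tested.

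Among the 60 members found in the promoter table, 17 (28.3%) had a 2-unit element in at least 1 window. The share was 17.0% of all 27025 genes in the table and 14.0% of the 11817 tested genes in it. The 3-unit element was in 4 members (6.67%), namely Hspd1, Hspe1, Hsph1 and Dnajb6, in 0.662% of all genes and in 0.575% of tested genes. Of the 9 genes listed as heat inducible that had a window, 8 had a 2-unit element and Dnajb1 had none, while 9 of the 51 other members (17.6%) had one. Differences of both signs were found with and without the 2-unit element. Members tested with a 2-unit element ran from -0.86 to 0.73 (n = 15, median 0.09) and those without from -2.07 to 1.57 (n = 39, median -0.05). The 4 genes with a 3-unit element lay between 0.18 and 0.34 (median 0.31), and the 50 tested members without it ran from -2.07 to 1.57 (median -0.06). These are descriptions of letters in a window, Hspd1 and Hspe1 share theirs, and 17 members were not matched, Hsp90aa1, Hsp90ab1 and Hspa8 among them.

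Members took 345533 reads in ctrl, 1.28% of the library (95% Wilson interval 1.28 to 1.29), and 404801 reads in M2, 1.38% (1.37 to 1.38). In this sum Hsp90ab1 weighed most, with 38.8% and 37.9% of member reads. Per length, in TPM (transcripts scaled by exon length to the same total in each library), members made up 0.977% and 1.04% of the total. Reads in mitochondrial genes were 4.83% and 4.11% of the libraries, and without these the member shares were 1.35% and 1.44%. A few genes set the total, and their order changed. In ctrl the highest levels were those of Hsp90ab1 (4233 TPM), Hspa8 (793 TPM) and Hspa1b (463 TPM). In M2 they were Hsp90ab1 (4474 TPM), Hspa8 (971 TPM) and Hsp90aa1 (504 TPM), and Hspd1 was next at 497 TPM. Among all genes Hspa1b moved from rank 233 to 533 by TPM and Hsp90aa1 from 448 to 240. Fewer cells of a type and less RNA per cell cannot be told apart in such bulk libraries.

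**Figure D1:**
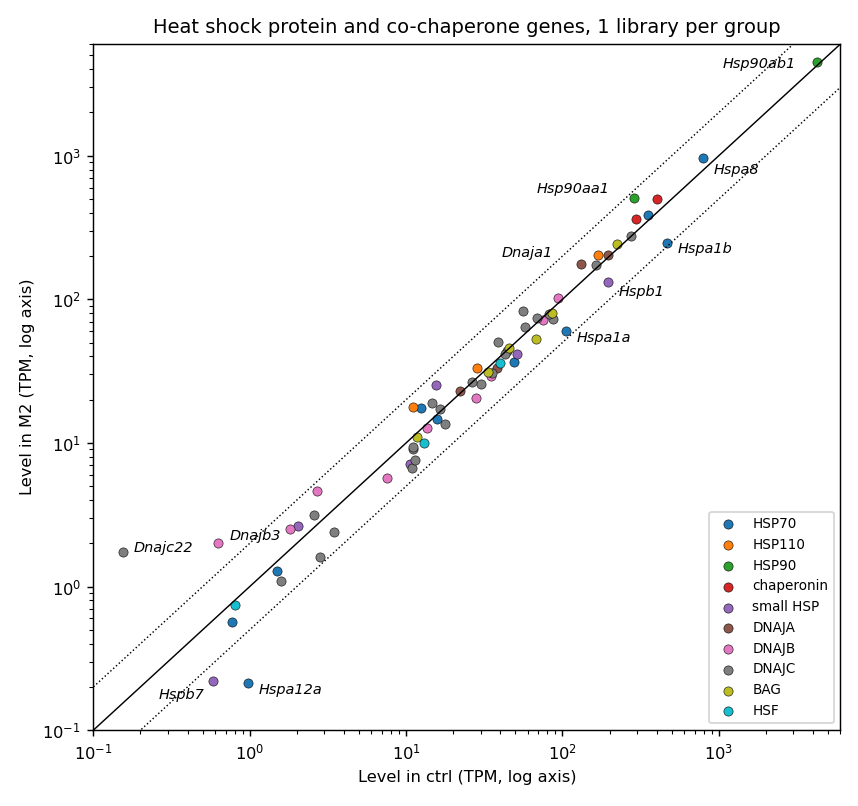
Levels of the 70 tested genes in ctrl (x axis) and M2 (y axis), both in TPM on log axes, with 1 point per gene and colours for the groups. The solid line marks equal levels and dotted lines a 2-fold difference; Hsp90ab1 stands apart at the top, most genes lie near the solid line, and Dnajc22, Dnajb3, Hspa12a and Hspb7 lie outside the dotted lines at low levels.

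At a 2-fold difference and an adjusted p under 0.05, 3 of the 70 members were called, whereas 14.7% of all genes tested were. The p-values come from a two-sided exact binomial test on the reads of both libraries with Benjamini-Hochberg adjustment over 19233 genes, and compare those libraries, not the conditions. Dnajb3 and Dnajc22 were called higher in M2 (2 of 70, against 8.16% of all genes) and Hspa12a was called lower (1 of 70, against 6.55%). All 3 had few reads. Dnajb3, a J protein best known from testis, had 7 reads in ctrl against 24 in M2. Its log2 fold difference (M2 minus ctrl, reads plus 1) was 1.57 (95% counting interval 0.45 to 3.17, adjusted p = 0.0081). Dnajc22 had 3 and 37 reads, a ratio of 9.06 and a log2 difference of 3.18 (1.90 to 5.90, adjusted p = 1.05e-07). Hspa12a, a divergent HSP70, had 59 and 14 reads and a log2 difference of -2.07 (-3.10 to -1.29, adjusted p = 9.83e-08). Per length, the levels were low as well: Dnajc22 stood at 1.75 TPM in M2 and Hspa12a at 0.974 TPM in ctrl.

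When the spread between cultures was assumed, by setting the coefficient of variation in edgeR's exactTest to 0.2, Dnajc22 and Hspa12a passed, so 2 of 70 did against 8.61% of all genes. At 0.4, 0 of 70 passed against 1.59%; by the binomial test, 3 did. At 4-fold, Dnajc22 and Hspa12a passed against 5.77% of all genes. Among genes with at least 200 reads, a limit chosen after the values were seen, 0 of 60 members were called against 9.83% of 12693 genes.

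Most members lay near no difference. The median log2 difference was -0.02, with quartiles of -0.30 and 0.31, beside -0.0032 (-0.32 and 0.35) over all genes tested, and 33 members were above 0 and 37 below. Within 1.5-fold of no difference lay 57 of 70 members (81.4%) and 68.7% of all genes. Members had more reads than most genes, and with at least 200 reads the shares were closer, at 85% of 60 members and 79.4% of all genes. At 1.5-fold with the same adjusted p, 7 members were called higher (12.8% of all genes were) and 5 lower (11.1% of all genes). The 7 were Hsp90aa1, Hspa4l, Dnajc2, Hspb6, Dnajb5, Dnajb3 and Dnajc22, and the 5 were Hspa1a, Hspa1b, Dnajc6, Dnajc16 and Hspa12a.

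**Figure D2:**
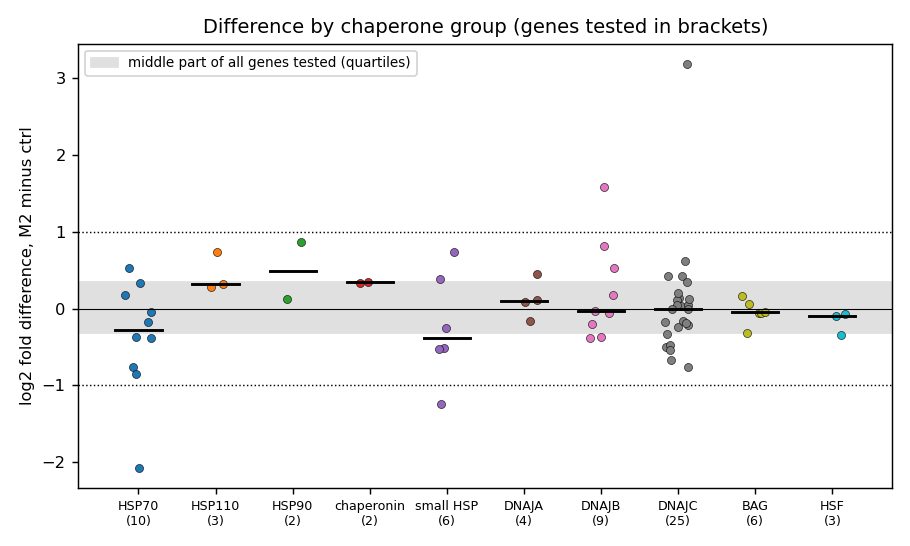
Log2 fold difference (M2 minus ctrl, y axis) of each tested gene by chaperone group (x axis, number of genes in brackets), with bars at the group median, grey between the quartiles of all genes tested and dotted lines at 2-fold. HSP110, HSP90 and chaperonin genes all lie above 0, and 7 of 10 HSP70 genes lie below.

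In the HSP70 group the stress-inducible Hspa1a and Hspa1b were lower in M2, and Hspa8, which is expressed at all times, was higher. Hspa1b was abundant in ctrl, at rank 233 of all genes by TPM. Hspa1b (chromosome 17, 34956436 to 34959238) had 13717 reads in ctrl against 7954 in M2, or 463 and 248 TPM. Hspa1a (chromosome 17, 34969190 to 34972156) had 3282 and 2038 reads, or 105 and 60.1 TPM. Both were lower in M2, Hspa1b by a log2 difference of -0.86 (-0.90 to -0.82) and Hspa1a by -0.76 (-0.84 to -0.68), and both were called at 1.5-fold but not at 2-fold. Their coding sequences are nearly identical, so reads could be exchanged between them, which their sum does not depend on. How reads that match both genes were counted is not given, and any that were dropped would be missing from the sum too. The sum was 16999 and 9992 reads, with a log2 difference of -0.84 (-0.87 to -0.80), 1.78-fold lower. An antisense gene, Gm20481, covers 19.0% of the exon bases of Hspa1a, and since the use of strand is not stated its reads (1281 and 886) cannot be fully told apart from those of Hspa1a.

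Hspa8, which folds proteins in the cytosol of all cells (chromosome 9, 40800984 to 40810087), had 36021 reads in ctrl against 47739 in M2, 793 and 971 TPM, a log2 difference of 0.34 (0.32 to 0.36). Hspa1a and Hspa1b together therefore stood at 0.716 of the Hspa8 level in ctrl and at 0.318 in M2 (both in TPM), a log2 change in the ratio of -1.17 (-1.21 to -1.13). Hspa9, the mitochondrial HSP70, had 14598 and 17239 reads (0.17, 0.14 to 0.20). Hspa13, a microsomal HSP70, had 780 and 1182 reads (0.53, 0.40 to 0.66), the highest difference of the group. Hspa2, known for its role in spermatogenesis and also expressed elsewhere, had 1297 and 1055 reads (-0.37, -0.49 to -0.25). The ribosome-associated Hspa14, with 1340 and 1361 reads, was at -0.05. At the low end, Hspa1l had 39 and 36 reads and Hspa12b had 30 and 24, and their intervals (-0.88 to 0.51 and -1.23 to 0.43) included 0. Hspa1l starts 547 bases from Hspa1a on the opposite strand and shares 71.9% of its exon bases with an antisense gene.

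All 3 HSP110 genes, whose proteins exchange the nucleotide of HSP70, were above 0. Hspa4l (chromosome 3, 40744495 to 40796103) had 1369 reads in ctrl against 2382 in M2, a log2 difference of 0.73 (0.63 to 0.83), called at 1.5-fold. Hspa4 had 9819 and 12878 reads (0.32, 0.28 to 0.36) and the heat-inducible Hsph1 had 2181 and 2770 (0.28, 0.19 to 0.36). In TPM, Hspa4 was the most abundant at 168 and 204, and Hsph1 stood at 0.169 and 0.164 of it. The BAG proteins, another class of exchange factors, differed less. The 6 genes lay between -0.31 and 0.16, and none was called at either fold. Of all genes tested, 14.7% were called at 2-fold, and 12.8% higher and 11.1% lower at 1.5-fold. Bag1 had 3169 and 3724 reads (0.16), Bag6 had 4442 and 3747 (-0.31), and the stress-inducible Bag3, a partner of HSP70 in autophagy, had 2326 and 2341 (-0.06, -0.14 to 0.02). Bag2, Bag4 and Bag5 were at -0.05, -0.04 and 0.06, with intervals that included 0.

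Of the cytosolic HSP90 genes, the more strongly inducible Hsp90aa1 (chromosome 12, 110690605 to 110702728) had 11854 reads in ctrl against 22628 in M2, 286 and 504 TPM. Its log2 difference was 0.86 (0.83 to 0.90), 1.82-fold, and it was called at 1.5-fold but not at 2-fold. Hsp90ab1, the form abundant without stress (chromosome 17, 45567775 to 45573271), had 134082 and 153334 reads, 4233 and 4474 TPM, and a difference of 0.12 (0.11 to 0.13). It was the gene of rank 23 in ctrl and 19 in M2 by TPM. Hsp90ab1 thus exceeded Hsp90aa1 by 14.8-fold in ctrl and 8.88-fold in M2 (TPM), a log2 change of 0.74 (0.71 to 0.77) in the ratio of Hsp90aa1 to Hsp90ab1. Both of the best known stress-inducible genes, Hspa1a with Hspa1b on the one hand and Hsp90aa1 on the other, differed by more than 1.5-fold, but in opposite directions: the ratio of their TPM levels was 1.99 in ctrl and 0.612 in M2 (log2 change -1.70, -1.75 to -1.65).

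The mitochondrial chaperonin Hspd1 and its lid Hspe1 had 11291 and 4580 reads in ctrl and 14999 and 6073 in M2. Their log2 differences were equal to 2 decimals, 0.34 (0.31 to 0.38) for Hspd1 and 0.34 (0.28 to 0.39) for Hspe1. The genes start 111 bases apart on opposite strands of chromosome 1, with Hspd1 taken at its outer start. The elements printed above lie past that start of Hspd1. The ratio of Hspe1 to Hspd1 in TPM was 0.727 in ctrl and 0.726 in M2. Exons of the genes overlap by 112 bases, 4.24% of Hspd1 and 7.60% of Hspe1.

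Small heat shock proteins did not move as a group. Hspb1, the main inducible member (chromosome 5, 135887919 to 135889563), had 2128 reads in ctrl against 1559 in M2, 195 and 132 TPM, and a log2 difference of -0.52 (-0.61 to -0.42), short of 1.5-fold. Hspb6, best known from muscle (chromosome 7, 30552178 to 30555443), had 379 and 662 reads (0.73, 0.55 to 0.92) and was called at 1.5-fold. The level of Hspb1 was 12.5 times that of Hspb6 in ctrl and 5.25 times in M2 (TPM). Hspb8, a partner of Bag3, had 1051 and 923 reads (-0.26, -0.39 to -0.13), and Hspb11, which despite its name works in ciliary transport, had 231 and 168 (-0.53, -0.82 to -0.24). Hspb7 with 17 and 7 reads (-1.24, adjusted p = 0.071, exact binomial test) was not called. Hspb2 with 18 and 25 reads shares 30.2% of its exon bases with the antisense neighbour Cryab, another small heat shock protein, which had 2692 and 2480 reads (-0.19). Luminal markers were lower in the same library as Hspb1, with the values given above, and their part in the difference of Hspb1 was not tested.

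**Figure D3:**
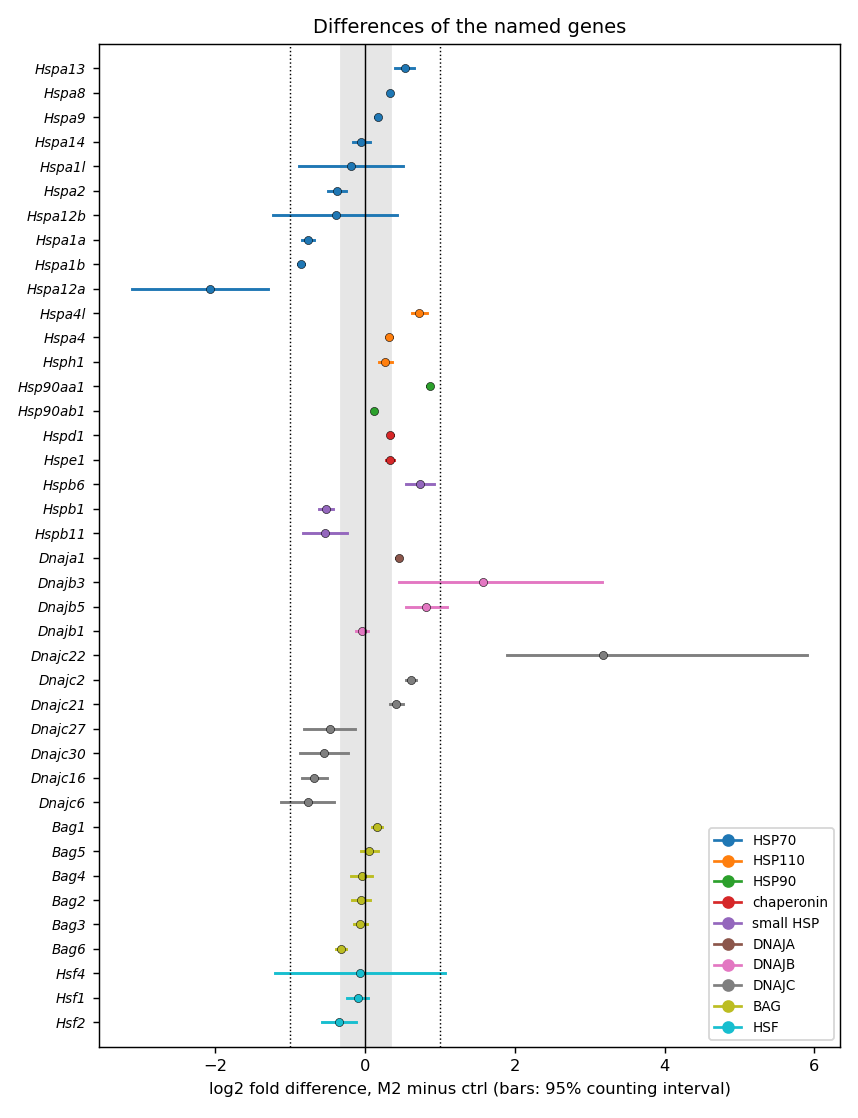
Log2 fold difference (M2 minus ctrl, x axis) of the 40 named genes, ordered within groups, with 95% counting intervals as bars, grey between the quartiles of all genes tested and dotted lines at 2-fold. Hspa1a and Hspa1b lie at -0.76 and -0.86, Hsp90aa1 at 0.86, and the wide bars belong to genes with few reads.

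J proteins formed the largest family, with 42 genes of which 38 were tested. Their median was 0.02, 19 were above 0 and 19 below, and 32 lay within 1.5-fold of no difference. The abundant cytosolic co-chaperones of HSP70 diverged slightly. Dnaja1 (chromosome 4, 40722150 to 40737149) had 12032 reads in ctrl against 17307 in M2 (0.46, 0.42 to 0.49), whereas Dnajb1, the classic heat-inducible J protein, had 2551 and 2614 (-0.03, -0.11 to 0.05). Dnajb1 stood at 0.571 of the Dnaja1 level in ctrl and 0.407 in M2 (TPM). Dnaja2, Dnajb6, Dnajc7 and Dnajc8, taken for their high read numbers, lay between 0.04 and 0.18, and the lowest, Dnajc8, was below 0 when libraries were scaled by total reads. Dnajc2, a ribosome-associated J protein that works with Hspa14, had 2962 and 4775 reads (0.62, 0.55 to 0.69, called at 1.5-fold), and Dnajc21, which takes part in ribosome assembly, had 1963 and 2757 (0.42, 0.34 to 0.51). Dnajb5 had 169 and 313 reads (0.82, 0.55 to 1.10) and was called at 1.5-fold as well.

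Among J proteins that were lower in M2, Dnajc6, the neuronal auxilin that uncoats clathrin vesicles, had 176 and 109 reads (-0.76, -1.12 to -0.41), and Dnajc16 had 755 and 497 (-0.67, -0.84 to -0.51). Both were called at 1.5-fold. Dnajc30, a mitochondrial protein, had 200 and 144 reads (-0.54, -0.86 to -0.23), but 26.2% of its exon bases are shared with Wbscr22 on the opposite strand. Dnajc27 had 172 and 130 reads (-0.47, -0.81 to -0.14). By compartment, the 7 endoplasmic reticulum members of the set had a median of -0.21 with 5 below 0, the 8 mitochondrial members a median of 0.14 with 6 above 0, and the 47 tested members of cytosol or nucleus a median of -0.0033.

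The HSF genes encode the transcription factors that induce heat shock genes. Hsf1, the main stress sensor, had 847 reads in ctrl against 831 in M2, 39.7 and 36.0 TPM, with a log2 difference of -0.10 whose interval (-0.24 to 0.04) included 0. Hsf2 had 358 and 296 reads (-0.34, -0.57 to -0.12) and Hsf4 had 15 in each. The reads measure RNA, and Hsf1 is controlled largely at the protein level, so its activity was not measured. The 7 members below 10 reads were Hsf3 (2 and 0 reads), Hspb9 (0 and 3), Dnajb7 and Dnajc5b (0 and 1 each), and Hspb3, Dnajb8 and Dnajc5g, which had 0 in both. A count of 0 allows up to 3 reads, or 0.109 CPM (reads scaled to library size) in ctrl and 0.104 in M2.

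Next, the 12 members listed as heat inducible were set beside related genes that are not members. The list takes in Hspa8 and Hsp90ab1, which are abundant without stress and respond to heat as well. The 12 had a median log2 difference of 0.20, with 7 above 0 and 5 below. At 2-fold 0 were called by the binomial test and 0 by either exactTest, beside 14.7% of all genes by the binomial test. At 1.5-fold 1 was called higher (Hsp90aa1, where 12.8% of all genes were) and 2 lower (Hspa1a and Hspa1b, where 11.1% were). The 8 other Hsf1 targets had a median of 0.22, 6 of them above 0, with Ubb, the most read, at 0.06. Cacybp (2486 and 4101 reads, 0.65) had the highest value of the list and is named for it. HSP90 co-chaperones (16 genes) had a median of 0.13 with 11 above 0. Cdc37, which loads kinases on HSP90 and was the most read, was at 0.18, and Fkbp5, an immunophilin named for its value, had 145 and 302 reads (0.98) without being called at 2-fold. HSP70 partners (4 genes) had a median of 0.17 and St13, the most read, was at 0.25.

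Most genes of the cytosolic folding machines outside the set were above 0. The 8 subunits of the CCT chaperonin, which folds actin and tubulin, had a median of 0.22 with 7 above 0, and Cct2, the most read, was at -0.06. The 6 prefoldin subunits had a median of 0.44 with 5 above 0, and Pfdn5, the most read, was at -0.20. That median lay above the upper quartile of all genes tested (0.35). In the endoplasmic reticulum, 13 of 14 chaperones were above 0 with a median of 0.27, and 3 were called higher at 1.5-fold, beside 12.8% of all genes. The most read was Calr (48900 and 64921 reads, 0.34). Hsp90b1, the HSP90 of that compartment, had 25973 and 48574 reads (0.83), close to the 0.86 of Hsp90aa1, and Hspa5, its HSP70, had 13533 and 21750 (0.62). Both were named for their kinship with members.

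**Figure D4:**
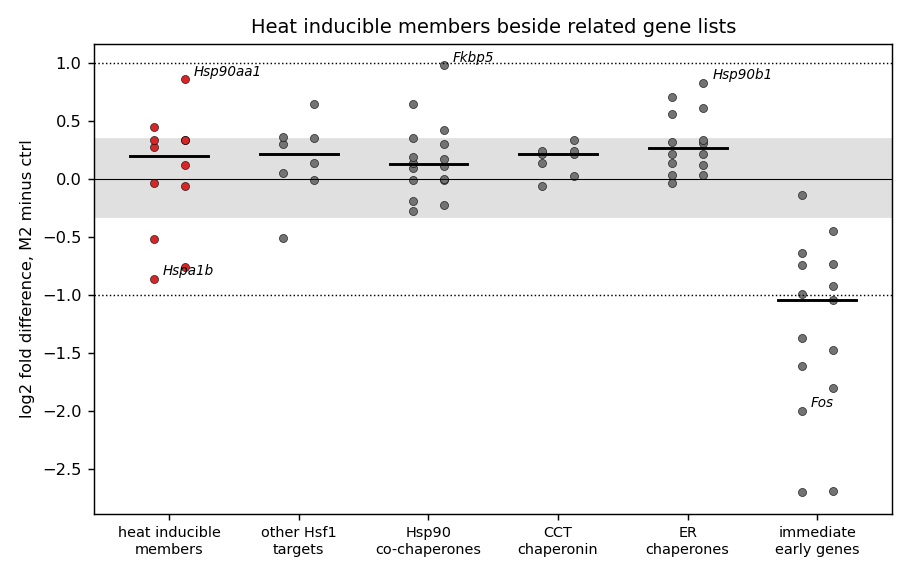
Log2 fold difference (M2 minus ctrl, y axis) of the 12 heat inducible members (red) and of genes of related lists (grey points), with bars at list medians, a grey band between the quartiles of all genes tested and dotted lines at 2-fold. Heat inducible members run from -0.86 to 0.86, and all 15 immediate early genes lie below 0.

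Immediate early genes, transcription factors and feedback proteins that many stimuli induce within minutes, were lower in M2 together with Hspa1a and Hspa1b. All 15 listed genes were below 0, with a median of -1.04, and their reads summed to 180248 in ctrl and 84643 in M2. At 2-fold 8 were called lower (Fos, Fosb, Egr1, Egr2, Atf3, Nr4a1, Dusp1 and Zfp36), where 6.55% of all genes were. Fos, the most read, had 42339 and 11153 reads (-1.99). The heat inducible list did not share this direction, with 7 of 12 above 0 and 5 below. Below 0 were Hspa1a, Hspa1b, Hspb1, Bag3 (-0.06) and Dnajb1 (-0.03). Above 0 were Hsp90aa1, Dnaja1, Hspa8, Hsph1, Hspd1, Hspe1 and Hsp90ab1 (0.12). The part of what moved the immediate early genes in the difference of Hspa1a and Hspa1b was not tested.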

How the data were processed

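RNA of 3D cultures started from basal cells was measured in 1 ctrl and 1 M2 library, grouped by the sample labels. The values deposited by the authors are raw counts of reads per gene, not normalized. The labels name RNeasy and SMARTER kits and the methods RNAiso Plus, and the series text says microarray. Aligner, counting tool, annotation and use of strand are not given in the sources used here. The submitters' notes name GRCm38 and mm10. All 77 members overlap the GENCODE M21 gene of the same name. Spreadsheet dates replaced 26 gene names.

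Counts were scaled by TMM (edgeR 4.0.16, R 4.3.3; factors 1.02 and 0.980). Genes with at least 10 reads summed were tested by the exact binomial test (scipy 1.17.1), adjusted by Benjamini-Hochberg, and called at an adjusted p under 0.05 and 2-fold. Log2 differences use a pseudocount of 1, with 95% Clopper-Pearson intervals of the read share. Intervals and floors cover counting error only, since no molecular identifiers are named, and there was no replicate check. TPM was computed from reads and exon length. Alternatives were 3 scalings (total reads, DESeq2 1.42.0 size factors, upper quartile), pseudocounts of 0.5 and 5, filters of 1 CPM in both libraries, of 1 read and of 200 reads (the last chosen after seeing the data), exactTest with assumed coefficients of variation of 0.2 and 0.4, and thresholds of 1.5- and 4-fold. The functions were tested on simulated data.

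Members and lists were chosen with earlier results of these data known. Named were the tested HSP70, HSP90, HSP110, chaperonin, BAG and HSF genes, the heat inducible list, members called at 2-fold, the 8 highest and 8 lowest members with at least 100 reads in a library, and from other lists called genes and the most read. Others are named for their values. Promoters of 60 members were taken from RefSeq.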

Additional observations from a re-analysis of the deposited data

How the results depend on the processing

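No paired analysis was possible because ctrl and M2 are single libraries with no replicate numbers. Of the members, 2 were called higher and 1 lower. Total-read scaling gave 2 lower (Hspb7 in addition). Under 1 CPM in both libraries, 200 reads summed and a coefficient of variation of 0.4 the counts were 0 and 0, through fewer genes tested in the first 2 and the assumed spread in the last. A coefficient of 0.2 left 1 higher, 4-fold left 1 higher, and 1.5-fold gave 7 and 5. Over all genes, called higher and lower were 1570 and 1260, and 797 and 583 under 1 CPM, 736 and 512 under 200 reads, 964 and 691 at a coefficient of 0.2, 175 and 130 at 0.4, 2462 and 2143 at 1.5-fold, and 616 and 494 at 4-fold. Scaling by total reads moved the median of all genes to -0.06 and changed the sign of 3 members (Dnajc15, Dnajc17 and Dnajc8), and the upper quartile that of 1 (Dnajc5), none with a reported value above 0.04 in size. None of the 40 members named by rule changed sign under the scalings, pseudocounts and filters tried, while outside the set Ubb (0.06), Ppid and Ttc4 were among the genes that did under another scaling. Depth limits the 10 tested members with under 200 reads, which include the 3 called ones, and with 1 library per group the spread between cultures is unknown.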
